A study of Mus musculus with 7 samples.

Results

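The genes described here are 9 genes of retinoid metabolism, which were taken by symbol from the deposited count table: the retinaldehyde dehydrogenases Aldh1a1, Aldh1a2 and Aldh1a3, the retinol dehydrogenase Rdh10, the retinaldehyde reductase Dhrs3, the binding proteins Rbp4, Crabp1 and Crabp2, and the degrading enzyme Cyp26b1. All 9 were found among the 23282 rows of the table. RNA came from glioblastoma, a malignant glial brain tumour, in adult C57BL/6 mice; its cells had been sorted by flow cytometry for tdTomato, a red fluorescent protein. The 7 libraries were 3 from mice labelled WT and 4 from mice labelled FYN-KO, written Fyn-KO below, in which the Src family tyrosine kinase gene Fyn is knocked out. The strain, the age, the disease and the sort were the same for both groups, and the cells of each mouse were sorted and made into a library separately. The sources used here do not say how the tumours were induced, what drives tdTomato or how Fyn was inactivated. The comparison asks which transcripts differ between glioblastoma cells with and without Fyn.

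Retinoids are vitamin A and its derivatives. Retinol travels in blood on Rbp4, is oxidised reversibly to retinaldehyde by Rdh10 and alcohol dehydrogenases, and is then oxidised irreversibly to retinoic acid by the Aldh1a enzymes. Dhrs3 works in the opposite direction and returns retinaldehyde to retinol, while Crabp1 and Crabp2 bind retinoic acid inside cells and Cyp26 enzymes break it down. Retinoic acid acts through nuclear receptors, the RARs paired with RXRs. In the developing brain the meninges are a known source of retinoic acid through Aldh1a2, and Aldh1a1 is also known from adrenal and gonadal tissue.

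Library totals ran from 8976745 to 16371244 counts, and levels are given as CPM, counts per 1000000 counts of the library. Fyn (chromosome 10, GRCm38) stood in WT at 1039, 719.9 and 1604 CPM, in Fyn-KO at 105, 106, 74.5 and 189.8 CPM (log2 fold change -3.43, edgeR adjusted p = 0.0121). A 3' tag marks the end of the transcript, and whether the inactivated part of Fyn lies there is not stated in the sources used here. Of 4827 genes that reached 100 CPM in a WT library, 2002 (41.5%) lay under 1 CPM in another WT library, against 1 of 2524 genes (0.0396%) in Fyn-KO, so that a level near 0 in a single WT library is common. The labelled cell type was checked with marker genes. Glial tumour markers summed to 6454 to 10747 CPM in WT and to 146 to 777 CPM in Fyn-KO, where 5 of 8 fell (Olig1, Olig2, Sox10, Pdgfra and Cspg4); none of the 8 was without a count throughout a group, though Sox2 had none in Fyn-KO replicates 1 and 2 and Gfap none in Fyn-KO replicate 2. Markers of steroid-producing cells summed to 8.12 to 286 CPM in WT and to 23393 to 27708 CPM in Fyn-KO, where 5 of 9 tested rose; of the 10 listed, Nr5a1, Cyp17a1, Cyp11b1, Cyp19a1 and Cyp21a1 lacked a WT count and each of the 10 had a Fyn-KO count. Choroid plexus markers summed to 3.86 to 142 CPM in WT and to 1675 to 2053 CPM in Fyn-KO. There Prlr and Folr1 rose, and Prlr made up most of the sum. Of the other markers of this list, Ttr had a lower mean in Fyn-KO (30.8 against 0.906 CPM) and was not tested. Otx2 had no count, Kl and Kcnj13 had means under 1 CPM in both groups, and Aqp1 did not pass (32.0 against 53.9 CPM). Lung epithelium markers summed to 118 to 789 CPM in WT and to 0.107 to 7.98 CPM in Fyn-KO, where all 3 tested of the 5 fell. The Fyn-KO libraries thus go against their label as glial tumour cells by these markers, and the genotype and this difference in content lie along the same split of the libraries and cannot be told apart. In RNA of a whole sort, fewer cells of a type and less RNA per cell also cannot be told apart.

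**Figure D1:**
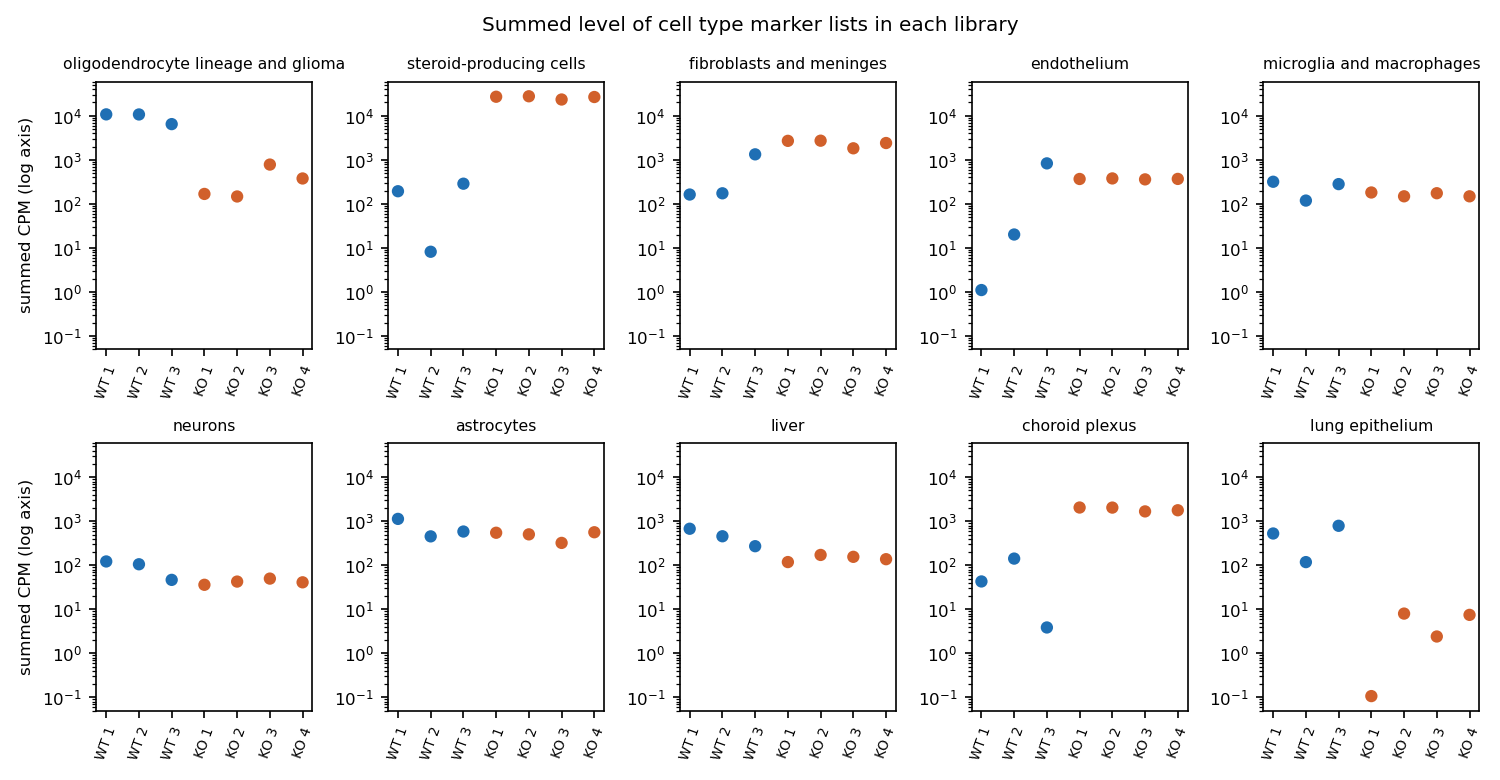
Summed CPM (log axis) of 10 lists of cell type markers in each of the 3 WT (blue) and 4 Fyn-KO (orange, KO) libraries, 1 point per library. The steroid-producing list lies at 8.12 to 286 CPM for WT, 23393 to 27708 CPM for Fyn-KO, and the glial list lies the other way, at 6454 to 10747 and 146 to 777 CPM.

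Of the 9 genes, 4 were higher in Fyn-KO: Aldh1a1, Aldh1a2, Dhrs3 and Crabp2. Aldh1a3, Rdh10 and Cyp26b1 did not pass the test, Rbp4 held too few counts to be tested, and Crabp1 had no count in any library. The test was the edgeR quasi-likelihood test with Benjamini-Hochberg adjustment over 13122 genes and a threshold of 0.05, and log2 fold changes are Fyn-KO over WT with an approximate SE. By the same test, 19.0% of all tested genes passed as higher in Fyn-KO and 3.51% as lower. None of the 9 was lower, by adjusted or by unadjusted p under 0.05 in edgeR, and 1 was by DESeq2 (Cyp26b1). Each Fyn-KO library lay above each WT library for the same 4 genes, a pattern seen in 30.1% of tested genes, while the reverse pattern, seen in 7.32%, occurred for none of the 9. Of the 4 genes, Aldh1a2, Dhrs3 and Crabp2 stayed under 10 counts in every WT library and so entered the test through their Fyn-KO counts; the same was true of 2340 of the 2493 genes that rose. The median difference in log2(CPM + 1) was 1.90 over the 8 of the 9 genes with a count and 1.06 over all 16599 genes with a count.

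**Figure D2:**
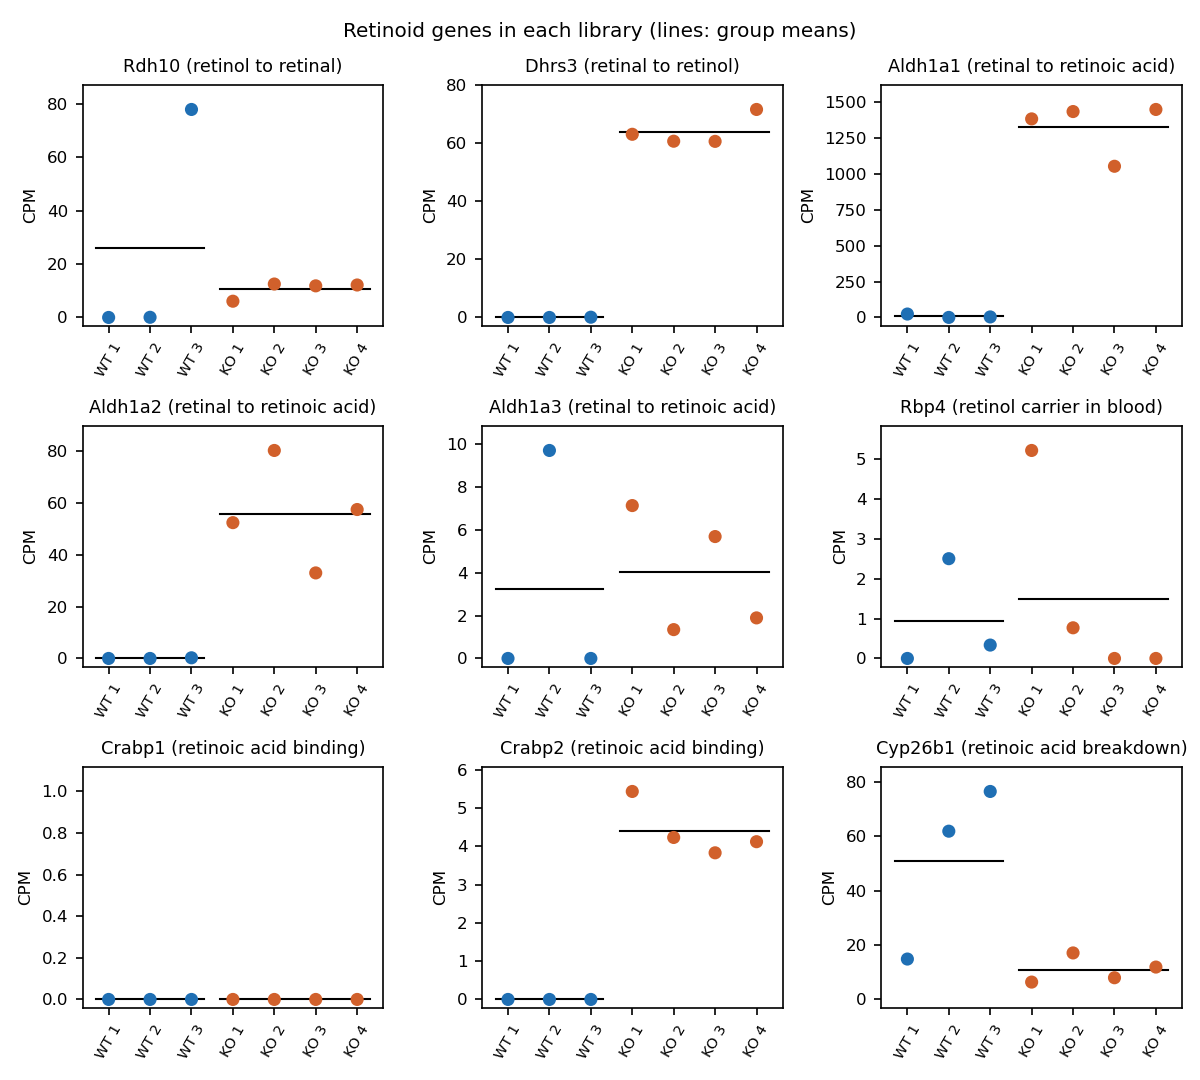
CPM of each of the 9 retinoid genes (linear axes, own scale per panel) in the 3 WT libraries (blue) and the 4 Fyn-KO libraries (orange, KO), with a black line at each group mean. Aldh1a1, Aldh1a2, Dhrs3 and Crabp2 do not overlap between the groups, Crabp1 is at 0 throughout, and Rdh10 is at 77.8 CPM in WT replicate 3 and at or under 0.0611 CPM in the other WT libraries.

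Among the enzymes that make retinoic acid, Aldh1a1 was the most abundant in Fyn-KO. Aldh1a1 (ENSMUSG00000053279.8, GRCm38 chromosome 19, 20492715 to 20643465, plus strand) stood in WT at 23.7, 0.305 and 3.61 CPM, in Fyn-KO at 1383, 1434, 1053 and 1449 CPM. The lowest Fyn-KO library was far above the highest WT library, and Fyn-KO replicate 3 was the lowest of its group. The means were 9.21 ± 12.7 CPM (SD, n = 3) and 1329.8 ± 187 CPM (SD, n = 4), a ratio of 144, with a log2 fold change of 7.09 ± 1.41 and an edgeR adjusted p of 0.0121. The exact two-sided permutation p of the CPM was 0.0286, the smallest that 35 splits of 7 libraries into 3 and 4 can give. Aldh1a1 was also past the threshold when the test was limited to genes that reached 10 counts in 2 WT and in 3 Fyn-KO libraries (log2 fold change 7.49, edgeR adjusted p = 0.0316), where 0.807% of 6446 genes were higher. In the WT libraries the lowest Aldh1a1 level was in replicate 2, which also had the lowest sum of steroid-producing cell markers (8.12 CPM). The sums were 193 and 286 CPM in replicates 1 and 3, whose Aldh1a1 levels ranked the other way. In replicate 1 the list member Fdx1 made up 188 CPM of the sum, Star and Hsd3b1 had no count and Cyp11a1 stood at 4.46 CPM. In replicate 3 Cyp11a1, Hsd3b1 and Star stood at 144, 104 and 37.4 CPM. In Fyn-KO the lowest level was in replicate 3, which had the lowest sum of those markers (23393 CPM) and the highest sum of glial markers (777 CPM). The members of the steroid list split there. Hsd3b1 (4119 CPM), Star (3962 CPM), Fdx1 (1477 CPM) and Inha (432 CPM) were at their lowest of Fyn-KO. Cyp11a1, the largest member, was at its highest (13175 CPM against 11509.5 to 11689 CPM), and Nr5a1 and Cyp17a1 were not at their lowest. The part of these markers in the level of Aldh1a1 was not tested.

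Aldh1a1 has a close paralog beside it on chromosome 19, Aldh1a7 (20692953 to 20727562, minus strand), to which tags could be assigned by mistake in either direction. Aldh1a7 stood in WT at 0.0783, 0 and 0.504 CPM, in Fyn-KO at 3.41, 8.46, 7.11 and 22.5 CPM, and it did not pass the test (edgeR adjusted p = 0.0645). The non-coding gene C730002L08Rik lies across Aldh1a1 on the minus strand. It held 28 and 18 counts in Fyn-KO replicates 1 and 4 and none in the other libraries, against 9620 to 14911 counts of Aldh1a1 in the Fyn-KO libraries.

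Aldh1a2 (ENSMUSG00000013584.5, chromosome 9, 71215789 to 71296243, plus strand), the enzyme that supplies most retinoic acid in the early embryo, was nearly absent from WT. It had 0, 0 and 3 counts in the WT libraries and stood at 52.3, 80.1, 32.9 and 57.4 CPM in Fyn-KO (55.7 ± 19.4, SD, n = 4). Within Fyn-KO it spread more than Aldh1a1 did, with a highest over lowest ratio of 2.43 against 1.38, and replicate 3 was again the lowest. The ratio of pooled counts was 773, with a 95% exact counting interval of 264 to 3751. The edgeR adjusted p was 0.0174 and the exact permutation p 0.0286, and the call was lost without Fyn-KO replicate 1 (adjusted p = 0.0506) or replicate 2 (0.0565). Cells of the meninges are a known site of Aldh1a2, and the summed markers of fibroblasts and meninges stood in WT at 162, 173 and 1327 CPM, in Fyn-KO at 1821 to 2711 CPM, where 3 of 9 tested rose. The 3 that rose were Dcn, Lum and Slc47a1, and the collagen genes Col1a2 and Col3a1 made up most of the rest of the Fyn-KO sum without passing. Other members had lower means in Fyn-KO and did not pass, among them Foxc1 (30.2 against 6.72 CPM), Ptgds (111 against 15.2 CPM) and Pdgfrb (105 against 32.3 CPM, with counts in WT replicate 3 alone among WT). Foxd1 was at 0 in both groups and Lum in WT. The part of this list in the level of Aldh1a2 was not tested.

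Aldh1a3 (ENSMUSG00000015134.15, chromosome 7, 66390890 to 66427517, minus strand), an enzyme of eye and nasal development that is also studied in glioma stem cells, did not separate the groups. It stood in WT at 0, 9.71 and 0 CPM, in Fyn-KO at 7.14, 1.35, 5.69 and 1.89 CPM. The highest level of all was in WT replicate 2, and the other WT libraries had no count. The log2 fold change was 0.59 ± 1.93 (edgeR adjusted p = 0.89). Without WT replicate 2 it was 8.34 and passed (adjusted p = 0.0203), since no WT count was then left.

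The makeup of the Aldh1a counts differed between the WT libraries and was similar between the Fyn-KO libraries. Aldh1a1 took 95.8 ± 0.794% of the counts of the 3 genes in Fyn-KO (SD, n = 4, range 94.6 to 96.5%), Aldh1a2 took 3.93 ± 0.962% and Aldh1a3 took 0.308 ± 0.232%. In WT replicate 1 all 303 counts were Aldh1a1 (Wilson 95% interval 98.7 to 100%). In WT replicate 2 Aldh1a3 made up 97.0% of 164 counts (93.1 to 98.7%), and in WT replicate 3 Aldh1a1 made up 93.5% of 46 counts (82.5 to 97.8%). These intervals cover counting error only. A tag of this method marks 1 transcript end whatever the length of the gene, so the shares compare transcripts without a length correction, apart from differences in how well the ends map.

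The promoters of the genes that moved most, with Cyp26b1 for contrast, are shown because retinoic acid regulates several genes of its own pathway through its receptors. They are windows of 300 bases, 250 before and 50 after an annotated start site, from RefSeq on GRCm38.p6; 6 of the 9 genes had an entry, which leaves out Aldh1a3, Crabp2 and Rdh10. The 3' tags do not show which start site is used, and of the several windows of Aldh1a1 and Dhrs3 the text prints the Aldh1a1 window that holds a half-site and the most upstream Dhrs3 window, both chosen after their sequences were seen. The windows are Aldh1a1 chr19:20601718-20602017 (plus strand), Aldh1a2 chr9:71215539-71215838 (plus strand), Dhrs3 chr4:144892577-144892876 (plus strand) and Cyp26b1 chr6:84593761-84594060 (minus strand). Capitals mark receptor half-sites, searched on both strands as AGGTCA or its variant AGTTCA, and likewise as GGGTCA or its variant GGTTCA.
Aldh1a1: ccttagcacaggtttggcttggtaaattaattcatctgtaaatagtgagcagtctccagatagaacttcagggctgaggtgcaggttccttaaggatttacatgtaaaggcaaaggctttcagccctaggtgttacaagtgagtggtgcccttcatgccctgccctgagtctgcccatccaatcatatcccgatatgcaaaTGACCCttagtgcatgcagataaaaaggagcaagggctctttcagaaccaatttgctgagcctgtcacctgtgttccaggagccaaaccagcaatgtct
Aldh1a2: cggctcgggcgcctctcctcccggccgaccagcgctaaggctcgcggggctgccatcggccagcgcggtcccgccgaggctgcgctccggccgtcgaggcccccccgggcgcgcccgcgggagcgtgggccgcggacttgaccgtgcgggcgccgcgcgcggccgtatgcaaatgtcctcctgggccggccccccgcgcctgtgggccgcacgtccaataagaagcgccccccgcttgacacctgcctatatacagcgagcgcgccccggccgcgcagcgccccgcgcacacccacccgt
Dhrs3: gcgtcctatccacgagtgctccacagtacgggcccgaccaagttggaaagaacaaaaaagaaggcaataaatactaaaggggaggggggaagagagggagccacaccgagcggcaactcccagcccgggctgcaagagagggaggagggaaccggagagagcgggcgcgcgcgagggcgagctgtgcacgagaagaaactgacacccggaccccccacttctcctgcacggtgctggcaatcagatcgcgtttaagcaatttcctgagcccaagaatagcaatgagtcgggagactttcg
Cyp26b1: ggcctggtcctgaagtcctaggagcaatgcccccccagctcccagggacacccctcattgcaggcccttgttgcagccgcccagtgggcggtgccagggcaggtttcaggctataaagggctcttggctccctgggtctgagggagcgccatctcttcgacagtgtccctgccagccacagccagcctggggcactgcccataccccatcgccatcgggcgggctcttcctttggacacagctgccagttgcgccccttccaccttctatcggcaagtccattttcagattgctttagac

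The Aldh1a1 window holds a single half-site, GGGTCA on the opposite strand, at position -49 from the start site. The other 3 windows hold none. A half-site of any of the 4 spellings occurs in 43.7% of the 32851 promoter windows of the table. None of the windows of the 6 genes holds a direct repeat of these half-sites with 1, 2 or 5 bases between them, the spacings that RAR and RXR pairs are known to bind, and such repeats occur in 0.588% of all windows. The windows differ in base composition, with 47.0% G and C in Aldh1a1, 78.0% in Aldh1a2, 58.7% in Dhrs3 and 62.3% in Cyp26b1 against a median of 52.7% over all windows. The absence of these letters says nothing about receptor binding elsewhere in the genes.

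Of the enzymes that interconvert retinol and retinaldehyde, Dhrs3 was higher in Fyn-KO and Rdh10 was not. Dhrs3 (ENSMUSG00000066026.14, chromosome 4, 144892827 to 144928209, plus strand), which limits retinoic acid production by reducing retinaldehyde, had 0, 0 and 1 counts in the WT libraries, while the Fyn-KO libraries held 63.1, 60.7, 60.6 and 71.6 CPM. It was the steadiest of the 4 higher genes within Fyn-KO, where the highest level was 1.18 times the lowest. The ratio of pooled counts was 2622, with a 95% exact counting interval of 470.2 to 103610, so the size of the rise is set by a single WT count. The edgeR adjusted p was 0.0121 and the exact permutation p 0.0286.

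Rdh10 (ENSMUSG00000025921.7, chromosome 1, 16105774 to 16133734, plus strand), which makes retinaldehyde for retinoic acid synthesis, stood in WT at 0, 0.0611 and 77.8 CPM, in Fyn-KO at 6.07, 12.5, 11.8 and 12.1 CPM. WT replicate 3 was above every Fyn-KO library and the other WT libraries were below every one. The log2 fold change was -1.71 ± 2.21 (edgeR adjusted p = 0.697), and without WT replicate 3 it was 8.10 (adjusted p = 0.0101), so a single library set its direction. That library also had the highest sum of endothelial markers, at 828 CPM against 1.10 and 20.04 CPM in WT replicates 1 and 2 and 358 to 377 CPM in Fyn-KO. Of the 6 endothelial markers none rose or fell and none was without a count throughout a group, and the same library was the highest of WT for fibroblasts and meninges (1327 CPM) and for lung epithelium (789 CPM, against 527 and 118 CPM). The part of these lists in the level of Rdh10 was not tested.

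Among the binding proteins Crabp2 was higher in Fyn-KO at a low level. Crabp2 (ENSMUSG00000004885.5, chromosome 3, 87948666 to 87953376, plus strand), which carries retinoic acid to its receptors, was without a WT count and had 51, 44, 35 and 37 counts in Fyn-KO, or 5.43, 4.23, 3.83 and 4.12 CPM. Set against the level of 3 counts in the shallowest WT library (0.252 CPM), the mean of 4.40 ± 0.707 CPM (SD, n = 4) was at least 17.5-fold higher. The edgeR adjusted p was 0.0121 and the exact permutation p 0.0286. Crabp1 (ENSMUSG00000032291.8, chromosome 9, 54764748 to 54773110, plus strand), its paralog, had no count in any of the 7 libraries, which at 3 counts allows levels of up to 0.183 to 0.334 CPM. At this depth Crabp1 was therefore not detectable in either group.

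Rbp4 (ENSMUSG00000024990.13, chromosome 19, 38116629 to 38125281, minus strand), the plasma carrier made chiefly by liver, stood in WT at 0, 2.504 and 0.336 CPM, in Fyn-KO at 5.22, 0.769, 0 and 0 CPM. The groups overlapped, with 45 pooled WT counts against 57 pooled Fyn-KO counts (exact permutation p of the CPM 0.886). Its partner in plasma, Ttr, stood at 0.0783, 91.6 and 0.672 CPM in WT and had counts in Fyn-KO replicate 1 alone (3.62 CPM) among its group. Rbp4 and Ttr were thus highest in the same library of each group, WT replicate 2 and Fyn-KO replicate 1. Liver markers, a list that holds Ttr, summed to 271 to 676 CPM among the WT libraries and 118 to 172 CPM among the Fyn-KO libraries, where 1 of 3 tested fell. That gene was Alb, at 267 to 423 CPM in the WT libraries and without a count in Fyn-KO; Apoa2, Serpina1a and Fgb also lacked a Fyn-KO count, and the first 2 of these were under 1 CPM throughout WT. Trf made up nearly all of the Fyn-KO sum, and Trf (96.8 against 139.6 CPM) and Apoa1 (0.209 against 5.27 CPM) had higher means in Fyn-KO without passing. Their part in the level of Rbp4 was not tested.

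Cyp26b1 (ENSMUSG00000063415.12, chromosome 6, 84571414 to 84593908, minus strand), which oxidises retinoic acid to inactive products, was the only 1 of the 9 genes with 10 or more counts in all 3 WT libraries. It stood in WT at 14.9, 61.9 and 76.6 CPM, in Fyn-KO at 6.39, 17.1, 7.99 and 11.9 CPM. WT replicates 2 and 3 lay above every Fyn-KO library, and WT replicate 1 lay below Fyn-KO replicate 2. Glial markers summed to 10747 and 10701 CPM in WT replicates 1 and 2, which differed in Cyp26b1, and to 6454 CPM in WT replicate 3; their part in the level of Cyp26b1 was not tested. The WT mean of 51.1 ± 32.2 CPM (SD, n = 3) was 4.71 times the Fyn-KO mean of 10.9 ± 4.78 CPM (SD, n = 4), a difference that did not pass the test (log2 fold change -2.39 ± 1.05, edgeR adjusted p = 0.156, exact permutation p = 0.0571). Without WT replicate 1 it passed (log2 fold change -2.84, adjusted p = 0.0372), and DESeq2 also placed it under the threshold (-2.40, adjusted p = 0.0336).

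The calls of Aldh1a2, Dhrs3 and Crabp2 did not hold under each method. With limma-voom and quality weights for libraries, Aldh1a1 passed (log2 fold change 9.44, adjusted p = 0.0277), and Aldh1a2, Dhrs3 and Crabp2 had log2 fold changes of 9.77, 10.28 and 6.97 and did not pass (adjusted p 0.358, 0.252 and 0.395).

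**Figure D3:**
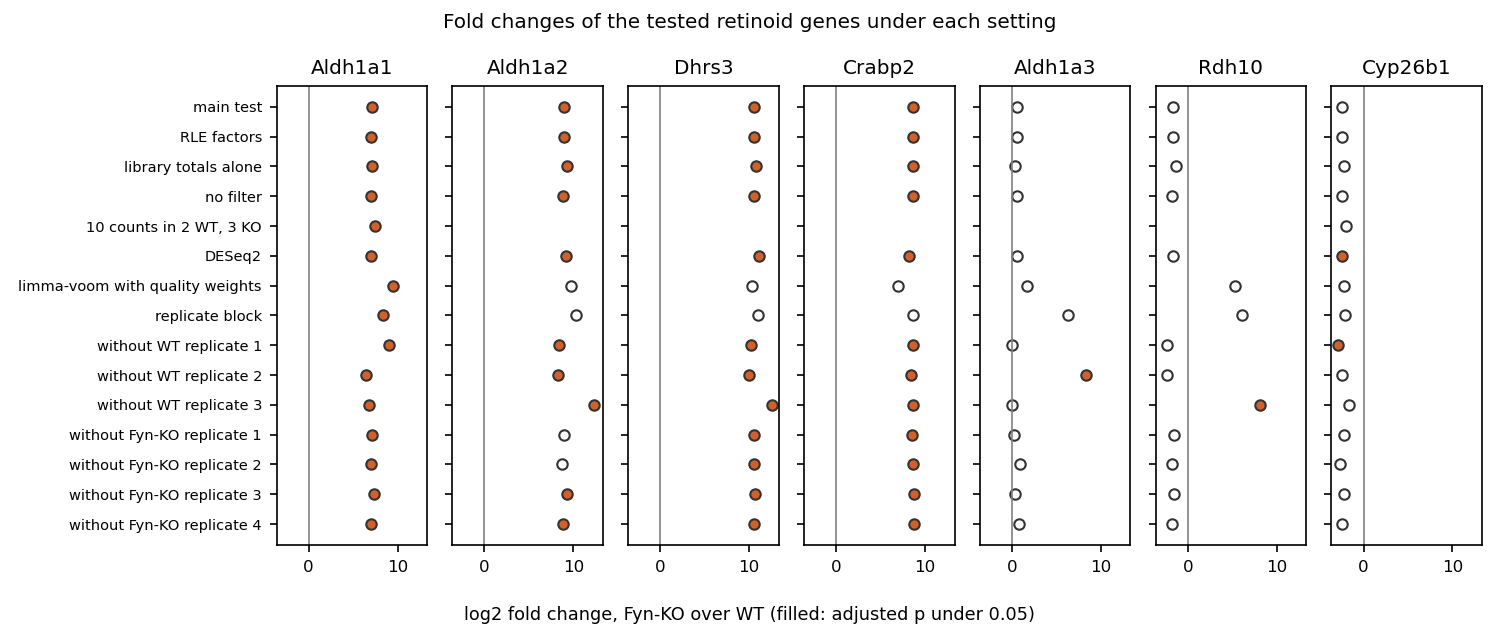
Log2 fold change (Fyn-KO over WT, horizontal axis) of the 7 tested retinoid genes under the main test and each of 14 other settings (rows), 1 point per setting; filled points have an adjusted p under 0.05 and a missing point means that the gene was not tested. Aldh1a1 is filled in every row, while Rdh10 moves from -1.71 to 8.10 when WT replicate 3 is left out. Rdh10 had no adjusted p under DESeq2 and is drawn open there.

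Ranked by mean CPM, the order of the 9 genes differed between the groups. In Fyn-KO the order was Aldh1a1, Dhrs3, Aldh1a2, Cyp26b1, Rdh10, Crabp2, Aldh1a3, Rbp4 and Crabp1. Aldh1a1 was clear of Dhrs3, Aldh1a2 of Cyp26b1 and Rdh10 of Crabp2 in each of the 4 libraries, with no overlap of their ranges, and the other neighbours overlapped; Dhrs3 was above Aldh1a2 in 3 of 4 libraries. In WT the order began with Cyp26b1, Rdh10 and Aldh1a1, and every neighbouring pair overlapped. Cyp26b1 was above Aldh1a1 in WT replicates 2 and 3 (61.9 against 0.305 CPM and 76.6 against 3.61 CPM) and below it in WT replicate 1 (14.9 against 23.7 CPM), and it was below Aldh1a1 in all 4 Fyn-KO libraries.

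The genes most like Aldh1a1 and Cyp26b1 in their pattern over the 7 libraries were found by the root mean square difference of log2(CPM + 1), each gene centred on its own mean. For Aldh1a1 these were Acaa2, a mitochondrial thiolase (0.85), Adh1, an alcohol dehydrogenase that also oxidises retinol (0.91), and Fosl2, an AP-1 transcription factor (1.05). Adh1 stood in WT at 90.9, 0 and 1.01 CPM, in Fyn-KO at 1521, 1536, 2114 and 1507 CPM, so it shared with Aldh1a1 its highest WT level in replicate 1 and its lowest in replicate 2. Within Fyn-KO they differed, as Adh1 was highest in replicate 3 (2114 CPM), where Aldh1a1 was lowest (1053 CPM). Adh1 did not pass the test (log2 fold change 5.75, edgeR adjusted p = 0.0897), although its groups did not overlap (exact permutation p = 0.0286). For Cyp26b1 the most similar genes were Ctdsp2, a phosphatase (0.26), Preb, a regulator of vesicle export from the endoplasmic reticulum (0.36), and Gnptg, a subunit of the phosphotransferase that marks lysosomal enzymes (0.38). The points share library depth and the group difference, so these values describe the 7 libraries and no more.

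Beyond the 9 genes, 73 other genes of retinoid handling and response were listed, of which 72 were in the table, 61 had a count and 48 were tested. Of these 48, 15 were higher in Fyn-KO and 33 did not pass, beside 19.0% of all genes higher. None was lower by edgeR adjusted p; Lpl, a lipase of the storage list, was the 1 gene lower at an unadjusted p under 0.05 and the 1 gene lower by DESeq2. Of the 15, 13 had under 10 counts in each WT library. Limited to genes that reached 10 counts in 2 WT and in 3 Fyn-KO libraries, 23 of the list were tested and 1 was higher (Ccnd2), and with limma-voom 1 of the 48 was higher (Rarres2). The median difference in log2(CPM + 1) was 1.92 over the 61 genes with a count, against 1.06 over all genes.

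Of 13 tested enzymes that convert retinol and retinaldehyde, 6 were higher in Fyn-KO, beside 19.0% of all tested genes. The retinol dehydrogenases Rdh5, Rdh9, Rdh11, Rdh12 and Rdh14 were without a count in WT, and Adh7, an alcohol dehydrogenase active on retinol, had 1. Rdh14 was the most abundant of the 5 at 28.02 ± 8.67 CPM in Fyn-KO (SD, n = 4), at least 111-fold higher than the floor, and Adh7 stood at 50.7, 29.9, 12.4 and 15.7 CPM. Rdh11 stood at 12.4 ± 3.48 CPM, at least 49.2-fold higher, Rdh9 at 9.70 ± 2.697 CPM, Rdh5 at 3.74 ± 1.43 CPM and Rdh12 at 3.46 ± 2.98 CPM. Dhrs4 and Dhrs7, other members of the short-chain family, were present in both groups and did not pass (edgeR adjusted p 0.91 and 0.73).

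Of the 4 tested genes of retinol carriage and uptake, Stra6 and Rbp7 were higher, beside 19.0% of all tested genes. Stra6, the receptor through which cells take retinol from Rbp4, was without a count in WT and reached 12.1, 4.81, 1.97 and 4.79 CPM in Fyn-KO (edgeR adjusted p = 0.0123). Rbp7, a cellular retinol carrier, was likewise without a WT count and averaged 8.88 ± 3.71 CPM in Fyn-KO (SD, n = 4), at least 35.3-fold higher. Lrat, which esterifies retinol for storage, was the 1 of 4 tested storage genes that was higher, with 2 pooled counts in WT and 12.5 ± 1.93 CPM in Fyn-KO. Among degrading enzymes Cyp26a1 and Cyp26c1 had no count in any library, and Cyp2s1, a P450 that can oxidise retinoic acid, rose from 2 pooled counts to 5.16 ± 3.88 CPM (edgeR adjusted p = 0.0483), a call lost without WT replicate 1 (adjusted p = 0.108) or 2 (0.0618) and with no filter on low counts (0.0853). Fabp5, which can carry retinoic acid to PPAR delta, stood in WT at 609, 134 and 14.5 CPM, in Fyn-KO at 54.5 to 97.0 CPM and did not pass (adjusted p = 0.256).

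**Figure D4:**
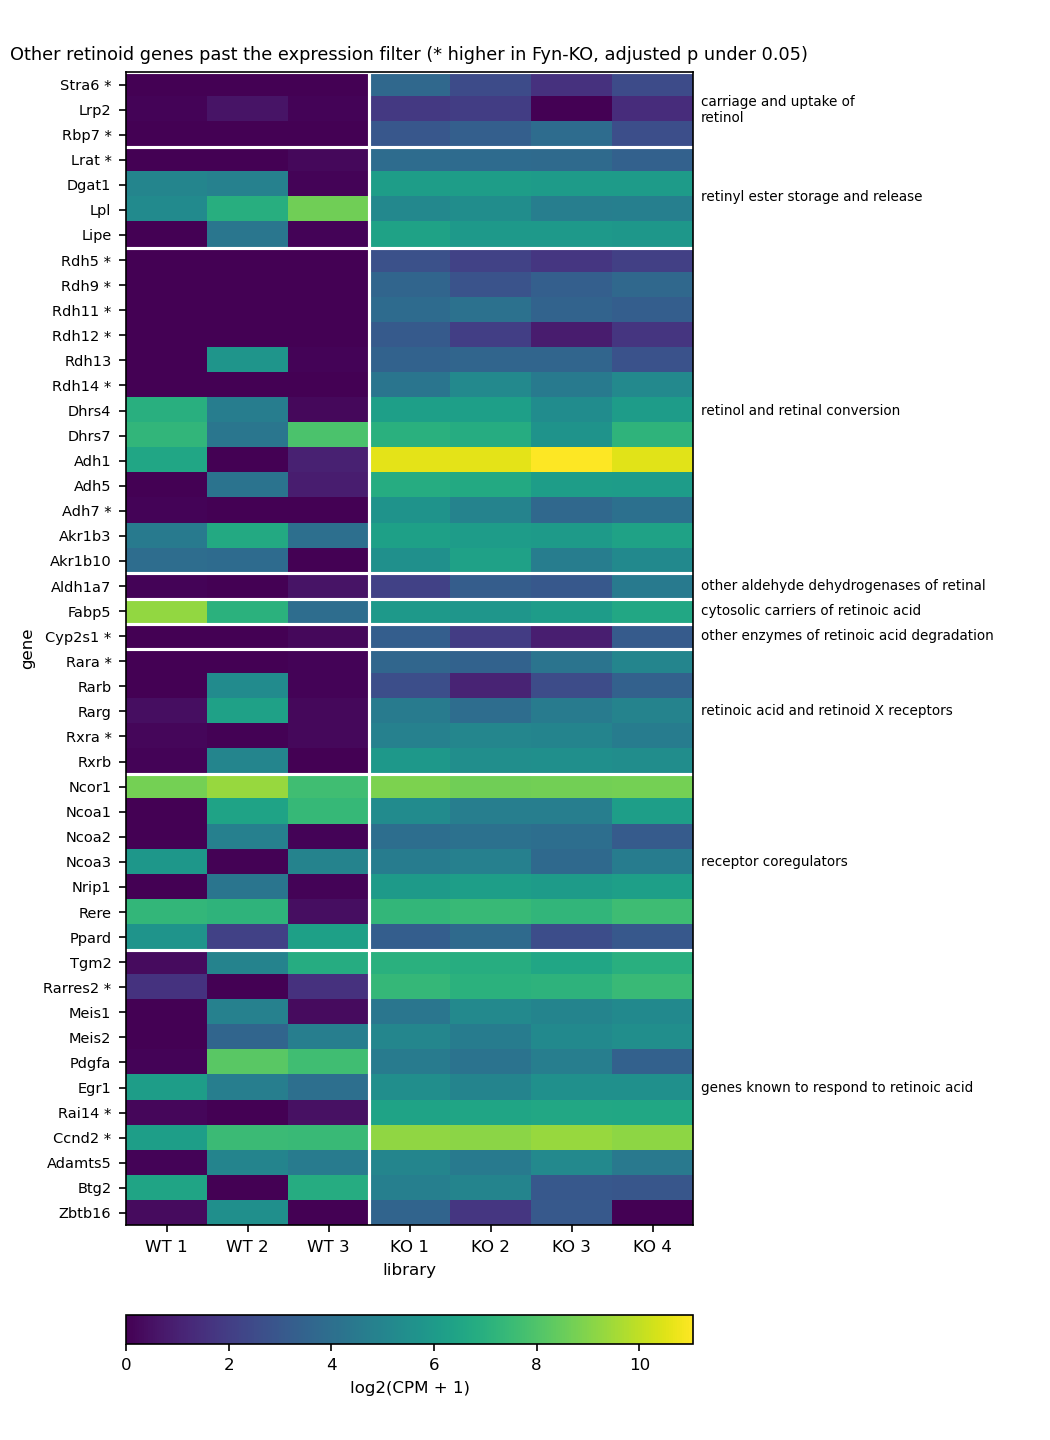
Log2(CPM + 1), shown by colour, of 46 of the 48 other retinoid genes that were tested (rows, grouped by list) in the 3 WT and 4 Fyn-KO (KO) libraries (columns); a star marks the 15 genes higher in Fyn-KO. Most starred rows are dark in all WT columns, and Adh1 is the brightest row in Fyn-KO, at 1507 to 2114 CPM.

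Of the 6 receptors, 5 were tested and Rara and Rxra were higher in Fyn-KO, beside 19.0% of all tested genes. Rara, a retinoic acid receptor of many tissues, had 1 pooled WT count and reached 11.5, 10.003, 18.3 and 31.9 CPM in Fyn-KO (edgeR adjusted p = 0.0131). Rxra, an obligate partner of many nuclear receptors, stood in WT at 0.157, 0.0611 and 0.168 CPM, in Fyn-KO at 28.1, 32.7, 30.9 and 23.95 CPM (log2 fold change 7.57, adjusted p = 0.0121). Rarb, Rarg and Rxrb shared a WT pattern: each was under 1 CPM in replicates 1 and 3 and stood at 38.8, 78.4 and 31.6 CPM in replicate 2. In Fyn-KO Rarb stood at 1.15 to 9.91 CPM, Rarg at 14.5 to 29.7 CPM and Rxrb at 41.1 to 59.0 CPM, and none of the 3 passed (adjusted p 0.811, 0.99 and 0.525). Rarb is itself a known target of retinoic acid, and its log2 fold change was -1.02. Without WT replicate 2 the 3 log2 fold changes were 6.38, 6.304 and 9.70 and all passed (adjusted p 0.0272, 0.0045 and 0.0046). Rxrg had 28 pooled WT counts and 10 pooled Fyn-KO counts and was not tested. The 8 genes of the coregulator list, which holds the corepressor Ncor1 and also the receptor gene Ppard (PPAR delta), were all tested and did not pass. Ncor1 ranged from 198 to 639 CPM over the WT libraries and from 398 to 469 CPM over the Fyn-KO libraries.

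Of 11 tested genes known to respond to retinoic acid, 3 were higher in Fyn-KO, beside 19.0% of all tested genes. Ccnd2, a D-type cyclin, was the 1 of the 15 higher genes with 10 or more counts in every WT library, with 72.4, 186 and 176 CPM there against 597, 562, 649 and 572 CPM in Fyn-KO (log2 fold change 1.95, edgeR adjusted p = 0.0153). Rarres2, which encodes chemerin, rose from 2.11, 0 and 2.01 CPM to 161, 131, 140 and 179 CPM (log2 fold change 6.56, adjusted p = 0.0228), a call lost without Fyn-KO replicate 1 or 4 (adjusted p 0.0544 and 0.0569), and Rai14, an actin-associated protein, from under 1 CPM to 83.0 to 96.9 CPM. Tgm2, a transglutaminase induced by retinoic acid in many cells, stood in WT at 0.235, 29.7 and 115 CPM, in Fyn-KO at 92.9 to 128 CPM and did not pass (adjusted p = 0.744). Stra8, Hoxb1 and Cdx1, other classical targets, had no count in any library.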

How the data were processed

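RNA of the sorted cells went into QuantSeq 3' libraries (Lexogen), per the labels' protocols. Bowtie2, bedtools, DESeq2 1.32.0 and mm10 (GRCm38) are named in the submitters' processing notes. The sources used here do not state the annotation or the strand of counting. The deposited values are whole-number counts per gene, and no molecular identifiers are named in the labels. Each of 7 columns was joined to a group by its label; the column of WT replicate 3 shares its name with the title of another WT sample and was used as a WT library.

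Genes were filtered with filterByExpr (10 counts, 15 in all) and scaled by TMM, and the groups were compared over all genes with edgeR 4.0.16 (R 4.3.3; quasi-likelihood, two-sided). The approximate SE divides the size of the log2 fold change by the root of the F statistic. Alternatives used limma 3.58.1 and DESeq2 1.42.0. The fit was tested on simulated data in which all genes and libraries had the same spread. That run does not show how the test performs where the WT libraries differ as much as they do here. Single values were compared by an exact permutation test. Positions are from GENCODE M21. Every pair of libraries of a group differed by more than counting noise.

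The genes and lists were chosen with earlier results of these data known. The text names the 9 genes, the pathway genes past the threshold, all receptors and the 3 genes most similar to the highest gene of each group; other genes were named after their values were seen. Protein sequences were not used here. Of the pathway genes, 2 are not reported here by name and are left out of the plot by gene.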

Additional observations from a re-analysis of the deposited data

Results flagged for a closer look

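In 28 genes, the 9 retinoid genes and the pathway genes named by rule, the 4 Fyn-KO libraries were searched for a library far from the others. Chance marks about 1 in 20 groups of values with a normal spread. That rate does not hold for genes with libraries at 0. A gene with counts in 1 Fyn-KO library alone, such as Rxrg, is marked whatever its level. Aldh1a1 was low in replicate 3 (1053 CPM against 1383 to 1449 CPM). In replicate 1 Rdh10 was low (6.07 CPM against 11.8 to 12.5 CPM), and Rbp4 (5.22 CPM) and Rxrb (59.0 CPM) were high. Rxrg was at 1.11 CPM in replicate 4 and had no count in the other Fyn-KO libraries. The cause of these departures was not tested.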

How the results depend on the processing

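Directions and calls were recomputed under 14 alternatives, 7 of which left out 1 library. Of the fold changes of 25 named genes so obtained, 265 were counted as keeping direction and side of the threshold. These include Rdh10, Rarg and Rxrb under DESeq2, which kept direction but were given no adjusted p. A further 42 lost the call, 5 gained it in the same direction and 11 reversed. Of the 11, 2 passed (Rdh10 without WT replicate 3 and Rarb without WT replicate 2). Without a scaling factor or with RLE factors the 4 higher retinoid genes passed too.

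With the replicate block, 188 genes were higher and 135 lower, with 1 retinoid gene (Aldh1a1) and 2 pathway genes (Adh1 and Rarres2) higher. Same-numbered libraries did not deviate together (correlations -0.014, -0.00016 and -0.021), so no pairing by number was seen. Because the WT libraries differ so much from each other, these correlations cannot exclude a pairing. With limma-voom 24 genes were higher and 320 lower, with 1 retinoid gene (Aldh1a1) and 1 pathway gene (Rarres2) higher. With 10 or more counts in 2 WT and 3 Fyn-KO libraries, 52 genes were higher and 139 lower, with 1 retinoid gene (Aldh1a1, of 2 tested) and 1 pathway gene (Ccnd2) higher; Aldh1a2, Dhrs3 and Crabp2 were not tested there, and Rarres2 was tested and did not pass (7.05, adjusted p = 0.0507). With DESeq2, 3679 genes were higher and 768 lower. Of the retinoid genes 4 were higher there and 1 lower (Cyp26b1), and of the pathway genes 18 were higher and 1 lower (Lpl). Leaving out 1 library gave 2190 to 4585 higher and 247 to 839 lower genes, 3 to 5 and 0 to 1 retinoid genes, and 12 to 25 and 0 to 3 pathway genes. The highest counts of higher genes came without WT replicate 2.

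Reversals were seen in 3 genes. Rdh10 was at 5.27 (limma-voom), 6.06 (replicate block) and from -2.29 (without WT replicate 1) to 8.10 (without WT replicate 3) with 1 library left out. Rarb was at 0.19 (limma-voom), 4.60 (replicate block) and from -1.60 (without WT replicate 1) to 6.38 (without WT replicate 2). Rarg was at -0.22 (no scaling factor), -0.52 without WT replicate 1 or 3, -0.0034 and -0.094 without Fyn-KO replicate 3 or 4, and 6.304 without WT replicate 2. Leaving out WT replicate 3 takes away nearly all WT counts of Rdh10, and leaving out WT replicate 2 nearly all those of Rarb and Rarg. The cause of the other changes was not tested. Rbp4 could be tested under few settings and Crabp1 under none. Depth limits Crabp1, and Crabp2 in WT, to levels under 3 counts per library.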
